A study of Mus musculus with 6 samples.

Results

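The miR-99, miR-100 and miR-125 families were measured by small RNA-sequencing of mouse whole brain at embryonic stage E15.5, and they are described here as 10 mature arms: mmu-miR-99a-5p, mmu-miR-99a-3p, mmu-miR-99b-5p, mmu-miR-99b-3p, mmu-miR-100-5p, mmu-miR-125a-5p, mmu-miR-125a-3p, mmu-miR-125b-5p, mmu-miR-125b-1-3p and mmu-miR-125b-2-3p, named from here on without the prefix for mouse. They were chosen by name, without use of their values, from the 1915 mature miRNAs listed in each library. Earlier results of these data were known when they were chosen. The libraries came from wild-type C57BL/6 embryos, 3 female and 3 male, and, per the study's methods, each was made from RNA pooled from 2 to 3 individuals of 1 sex, so that an embryo cannot be told apart from its pool. The sexes were compared to find miRNAs with unequal levels between female and male brain. The spread between libraries is therefore a spread between pools.

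Mature miRNAs are cut from the arms of a hairpin precursor, the 5p arm from its 5′ side and the 3p arm from its 3′ side, and a target messenger RNA is recognized mainly through the seed, the bases near the 5′ end of the miRNA. miR-125 is the vertebrate counterpart of lin-4, the first miRNA described in the nematode, and it lowers Lin28, an RNA-binding protein of stem and progenitor cells that blocks the maturation of let-7. Members of the miR-99/100 family are known to target messenger RNAs of the insulin-like growth factor and mTOR pathways. Genes of both families lie beside let-7 genes and are transcribed with them, and in the developing brain let-7 and miR-125 accumulate as progenitors give way to neurons.

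The 5p arms fell into 2 seed families. Their mature sequences are shown because the families, and the small differences inside them, decide which arms could be told apart by sequencing. All 10 arms matched RefSeq entries (GRCm38.p6), and the seed, bases 2 to 8 counted from 1 at the 5′ end, is in capitals.
miR-99a-5p: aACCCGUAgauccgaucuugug
miR-100-5p: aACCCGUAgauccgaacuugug
miR-99b-5p: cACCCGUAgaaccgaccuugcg
miR-125a-5p: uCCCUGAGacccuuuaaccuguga
miR-125b-5p: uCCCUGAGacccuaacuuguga
miR-99a-5p and miR-100-5p were identical at 21 of 22 bases and differed by U16A, while miR-99b-5p differed from miR-99a-5p by A1C, U11A, U16C and U21C. miR-125b-5p and miR-125a-5p were 22 and 24 bases long and shared their first 13 bases. A read that ends before base 16, or that has an error at that base, cannot place miR-99a-5p against miR-100-5p, and how such reads were assigned is not given in the sources used here.

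The 3p arms carry the information on the locus, because miR-125b-5p is made from a pair of genes whose 5p arms are identical. They are shown with the same marking.
miR-99a-3p: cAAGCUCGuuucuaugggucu
miR-99b-3p: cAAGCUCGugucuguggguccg
miR-125a-3p: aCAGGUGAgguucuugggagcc
miR-125b-1-3p: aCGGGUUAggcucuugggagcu
miR-125b-2-3p: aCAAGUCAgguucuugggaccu
miR-99a-3p and miR-99b-3p shared their seed, whereas the 3 miR-125 3p arms each had a seed of their own. miR-125b-1-3p and miR-125b-2-3p differed by G3A, G4A, U7C, C11U and G20C, of which the first 3 lie inside the seed.

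The arms mapped to 3 loci of the mouse genome (NCBIM37, the assembly also called mm9, the build named in the submitters' processing notes), all on the plus strand. On chromosome 16, miR-99a-5p lay at chr16:77599185-77599206 and miR-99a-3p at chr16:77599222-77599242, beside let-7c-5p at chr16:77599917-77599938. The miR-125b-2 hairpin followed, with its 5p arm at chr16:77646524-77646545 and its 3p arm at chr16:77646563-77646584, so that the locus spanned 47400 bases. The miR-99a and let-7c-1 hairpins lay within an intron of Gm11146, which is annotated on the opposite strand, and no other gene was annotated at miR-125b-2 (GENCODE vM1).

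On chromosome 9, miR-100-5p lay at chr9:41339520-41339541, let-7a-2-3p at chr9:41344860-41344880, and the miR-125b-1 hairpin gave its 5p arm at chr9:41390023-41390044 and its 3p arm at chr9:41390063-41390084. All of them were intronic in D230004N17Rik, a long noncoding RNA gene named Mir100hg by RefSeq, and the locus spanned 50565 bases. The chromosome 17 locus was far smaller, at 683 bases. It held miR-99b-5p (chr17:17967158-17967179), miR-99b-3p (chr17:17967196-17967217), let-7e-5p (chr17:17967330-17967351), miR-125a-5p (chr17:17967781-17967804) and miR-125a-3p (chr17:17967819-17967840). Only the miR-125a arms overlapped another annotated gene, Ncrna00085, called Spaca6 by RefSeq. There, miR-125a-5p lay inside an exon of a noncoding transcript and miR-125a-3p across the end of that exon. No other gene was annotated at the miR-99b and let-7e arms. miR-125b-5p matched the genome exactly at 2 places, as did let-7a-5p and let-7c-5p, and each other member arm matched at 1.

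Sequencing depth ranged from 14802675 to 59362011 reads assigned to miRNAs per library. The deepest library, female 2, stood apart: it held 660 miRNAs with at least 1 read against 790 to 915 in the other 5, although it had the most reads. Fold changes and differences that moved by over 1.5 times without it are given both ways. The 10 arms made up 14.4%, 21% and 14.7% of the reads of female libraries 1, 2 and 3, and 16.5%, 17.8% and 17.1% of those of male libraries 1, 2 and 3. Levels are given in CPM, counts scaled to the library total, in this order of libraries.

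miR-125b-5p was the most abundant arm and the 2nd most abundant of all miRNAs in each of the 6 libraries. Its level was 66167, 110630 and 66584 CPM in the female libraries and 90289, 103239 and 91007 CPM in the male libraries. The 3 male values lay between the deepest female library and the other 2. Its relative miR-125a-5p was lower, at 9694, 24276 and 10104 CPM in females and 16306, 17441 and 15009 CPM in males. The same pattern held: female library 2 was the highest of the 6, and the other 2 female libraries were the lowest.

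The miR-99/100 family was led by miR-99a-5p, at 32326, 32639 and 39322 CPM in females and 22008, 22671 and 25068 CPM in males. Every female library was above every male library. miR-99b-5p, with the same seed, was at 24311, 29089 and 20130 CPM in females and 27433, 25701 and 29438 CPM in males, and the sexes overlapped. miR-100-5p was the least abundant 5p arm, at 9817, 11389 and 9600 CPM in females and 7084, 7472 and 8481 CPM in males. Here the groups did not overlap, and the males were lower.

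The 3p arms were present at far lower levels. miR-125b-1-3p was at 592, 822 and 676 CPM in females and 913, 729 and 675 CPM in males. miR-99b-3p was at 581, 502 and 477 CPM in females and 866, 675 and 737 CPM in males, with every male library above every female library. This separation also held for miR-125a-3p, the partner strand of miR-125a-5p, which was at 50.0, 27.3 and 43.8 CPM in females and 72.9, 71.2 and 72.7 CPM in males.

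miR-125b-2-3p, the 3p arm made from the chromosome 16 copy of miR-125b, was at 337, 305 and 347 CPM in females and 316, 264 and 260 CPM in males. The groups overlapped through female library 2 and male library 1. miR-99a-3p was close to absent, with 13, 1 and 51 reads in females and 82, 36 and 24 reads in males. Its levels of 0.02 to 4.39 CPM rest on too few reads to place the sexes against each other.

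**Figure D1:**
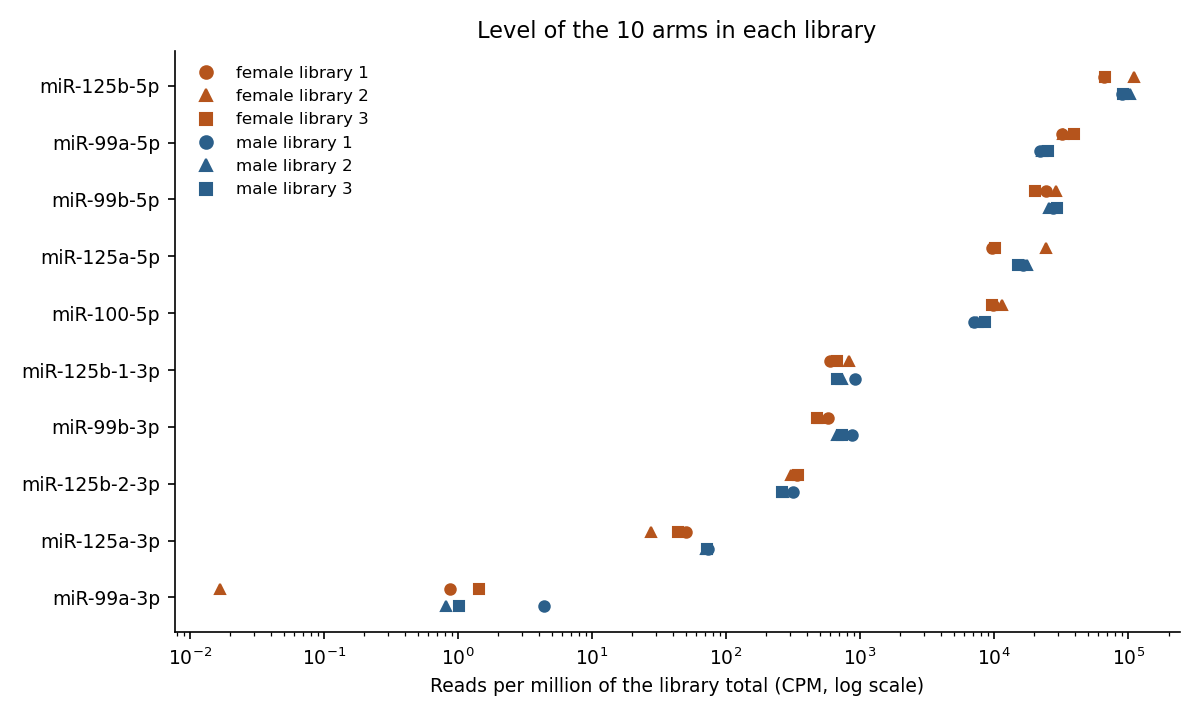
Levels of the 10 arms in each library, in CPM of the library total on a log axis, with 1 point per library and the sexes in separate colors. The arms ran from 87986 CPM on average for miR-125b-5p to 1.42 CPM for miR-99a-3p, and the sexes did not overlap for miR-99a-5p and miR-100-5p (females higher) or miR-99b-3p and miR-125a-3p (males higher).

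Ordered by their mean over the 6 libraries, the 5p arms ran miR-125b-5p (87986 CPM), miR-99a-5p (29006), miR-99b-5p (26017), miR-125a-5p (15472) and miR-100-5p (8974). miR-99a-5p and miR-99b-5p were not separated, because miR-99a-5p was the higher of the pair in 3 of 6 libraries, all of them female. miR-125a-5p was above miR-100-5p in 5 of 6 libraries. Among the 3p arms, miR-125b-1-3p (734 CPM) was above miR-99b-3p (639 CPM) in 5 of 6 libraries, and miR-125b-2-3p (305 CPM), miR-125a-3p (56.3 CPM) and miR-99a-3p (1.42 CPM) followed in that order in every library. These comparisons set different sequences side by side, and the ligation and amplification of small RNA libraries recover sequences unequally, so that the order is that of reads and not of molecules.

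No member arm passed the test between the sexes. With the quasi-likelihood test of edgeR, adjusted by the Benjamini-Hochberg method over all 1120 miRNAs tested, 0 of 10 arms had an adjusted p below 0.05, against 8.48% of all miRNAs tested (95 of 1120, 36 of them higher in males and 59 in females; 50 and 39 when libraries were scaled to their size alone, which moved the median log2 fold change of all miRNAs tested from -0.02 to 0.11). Before adjustment, 4 of 10 arms had a p below 0.05, against 18.4% of all tested, and these were miR-99a-5p and miR-100-5p, lower in males, and miR-99b-3p and miR-125a-3p, higher in males. With at least 10 reads required in every library, it was 4 of 9 arms, against 35.1% of all tested. There, miR-125b-2-3p took the place of miR-99b-3p. The 4 arms of the first count were those whose CPM did not overlap between the sexes, against 23.9% of all tested. With TMM-scaled levels, in which the library total is corrected for its makeup, miR-125b-2-3p joined them as lower in males, making 5 of 10 against 23.8%. The log2 fold changes of male over female were positive for 5 arms and negative for 5, with a median of 0.01, and without female library 2 they were positive for 7 and negative for 3, with a median of 0.34.

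The number of arms called depended on the model. DESeq2 called 1 of 10, against 11.5% of all tested. With 1 RUVr factor, an estimate of unwanted variation taken from the residuals of the fit and the kind of correction the study used, edgeR called 2 of 10 (13.1% of all tested) and DESeq2 called 4 of 10 (20.2% of all tested). Requiring at least 10 reads in every library left 9 of the arms, of which edgeR called 1 (17.6% of all tested). Without female library 2, edgeR called 2 of 10 (18.3% of all tested). miR-99a-5p was among the arms called in each of these fits. Library size scaling, upper quartile scaling and no filter called 0 of 10, against 7.95%, 8.12% and 8.94% of all tested. Leaving out any library other than female library 2 also gave 0 of 10, against 2.73% to 8.5% of all tested.

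The chromosome 16 locus held the largest difference among the 5p arms. miR-99a-5p was at 34762 ± 3952 CPM in females and 23249 ± 1610 CPM in males (mean ± SD, n = 3 each). The log2 fold change of male over female was -0.70 (SE 0.26), and edgeR gave an adjusted p of 0.116 after Benjamini-Hochberg correction. This arm was the one called most often. DESeq2 gave an adjusted p of 0.00454, DESeq2 with 1 RUVr factor 0.000265 and edgeR with 1 RUVr factor 0.0328, and edgeR without female library 2 gave 0.0171 with a log2 fold change of -0.69. Over all 14 alternatives the log2 fold change ran from -0.77 to -0.58 and the adjusted p from 0.000265 to 0.368, so that the direction held under each of them and the call did not.

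The other arms made from the chromosome 16 locus alone were miR-99a-3p, let-7c-1-3p and miR-125b-2-3p. let-7c-1-3p, the minor strand of the let-7c gene beside miR-99a, was at 22.6, 25.5 and 30.2 CPM in females and 14.0, 16.8 and 15.9 CPM in males. The groups did not overlap. Its log2 fold change was -0.87 (SE 0.41), with an adjusted p of 0.247 (edgeR with Benjamini-Hochberg adjustment). miR-125b-2-3p had a log2 fold change of -0.37 (SE 0.19, adjusted p = 0.340 by the same edgeR test), and miR-99a-3p, at few reads, had 1.27 (SE 2.03, adjusted p = 0.803 by edgeR), or 0.69 without female library 2 and 0.23 without male library 1. Thus 3 of the 4 arms specific to the locus had negative fold changes, against 570 of all 1120 miRNAs tested, and 0 of 4 passed the test.

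The chromosome 9 locus, host of miR-100, let-7a-2 and miR-125b-1, gave fold changes of either sign. miR-100-5p was at 10269 ± 976 CPM in females and 7679 ± 721 CPM in males (mean ± SD, n = 3 each). Its log2 fold change was -0.55 (SE 0.23), with an adjusted p of 0.174 by edgeR and Benjamini-Hochberg, and 0.0173 by DESeq2 with 1 RUVr factor. miR-125b-1-3p, made at the far end of the same locus, had a log2 fold change of -0.00 (SE 0.20, adjusted p = 0.998 by edgeR), and its sign was positive under scaling to library size (0.15) and without female library 2 (0.20). let-7a-2-3p was measured by 14 to 136 reads per library and had a log2 fold change of 0.45 (SE 1.39, adjusted p = 0.904 by edgeR).

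The chromosome 17 locus showed positive fold changes in 5 of its 6 arms, against 550 of all 1120 miRNAs tested. Again 0 of 6 were called in the edgeR fit. Arms of 1 locus are transcribed together, so that their signs are no independent counts. Signs near 0 were not stable: miR-125a-5p was negative in that fit and with upper quartile scaling but positive with library size scaling, miR-99b-5p was negative without female library 3 and without male library 3, and let-7e-3p was negative without female library 3 (-0.11) and without male library 2 (-0.010). miR-99b-3p was at 520 ± 54.3 CPM in females and 759 ± 97.4 CPM in males (mean ± SD, n = 3 each), a log2 fold change of 0.41 (SE 0.19) with an adjusted p of 0.224 by edgeR and Benjamini-Hochberg. DESeq2 with 1 RUVr factor gave it 0.0152. miR-125a-3p was at 40.4 ± 11.7 CPM in females and 72.3 ± 0.957 CPM in males, a log2 fold change of 0.73 (SE 0.30) with an adjusted p of 0.164 by edgeR, of 0.0487 by edgeR with 1 RUVr factor and of 0.0133 by DESeq2 with 1 RUVr factor. let-7e-5p, the let-7 made between them, was at 3844, 3699 and 2596 CPM in females and 5109, 5637 and 4442 CPM in males. Every male library was higher, and the log2 fold change was 0.46 (SE 0.22, adjusted p = 0.289 by edgeR and Benjamini-Hochberg).

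The main products of the same locus had fold changes near 0. miR-99b-5p had a log2 fold change of 0.03 (SE 0.26, adjusted p = 0.975 by edgeR), which was 0.24 without female library 2, and miR-125a-5p of -0.02 (SE 0.32, adjusted p = 0.994 by edgeR). The value for miR-125a-5p rested on female library 2, in which it was 2.50-fold as high as in female library 1. Without that library, its log2 fold change was 0.65 with an adjusted p of 0.0229 by edgeR, and all 3 male libraries were above both remaining females. let-7e-3p, the minor strand, had a log2 fold change of 0.12 (adjusted p = 0.894 by edgeR), and 0.42 without female library 2.

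miR-125b-5p, the sum of the chromosome 9 and chromosome 16 genes, was at 81127 ± 25551 CPM in females and 94845 ± 7278 CPM in males (mean ± SD, n = 3 each). The log2 fold change was 0.08 (SE 0.33, adjusted p = 0.932 by edgeR and Benjamini-Hochberg), and it was 0.45 (adjusted p = 0.239 by edgeR) without female library 2, which set the upper end of the female spread. The 5p arms of the neighboring let-7 genes, which are also made elsewhere in the genome, also depended on single libraries. let-7a-5p had a log2 fold change of 0.19 (adjusted p = 0.768 by edgeR), with 0.37 without female library 2 and 0.023 without male library 2. let-7c-5p had 0.17 (adjusted p = 0.803 by edgeR), with 0.42 without female library 2, 0.0067 without male library 2 and -0.0049 without female library 3. Of the 6 let-7 arms paired with these loci, 0 passed the test, against 8.48% of all miRNAs tested. Before adjustment 1, let-7c-1-3p, had a p below 0.05, against 18.4% of all tested. DESeq2 also called 0, against 11.5%. DESeq2 with 1 RUVr factor and edgeR without female library 2 each called 1, let-7e-5p, against 20.2% and 18.3% of all tested.

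**Figure D2:**
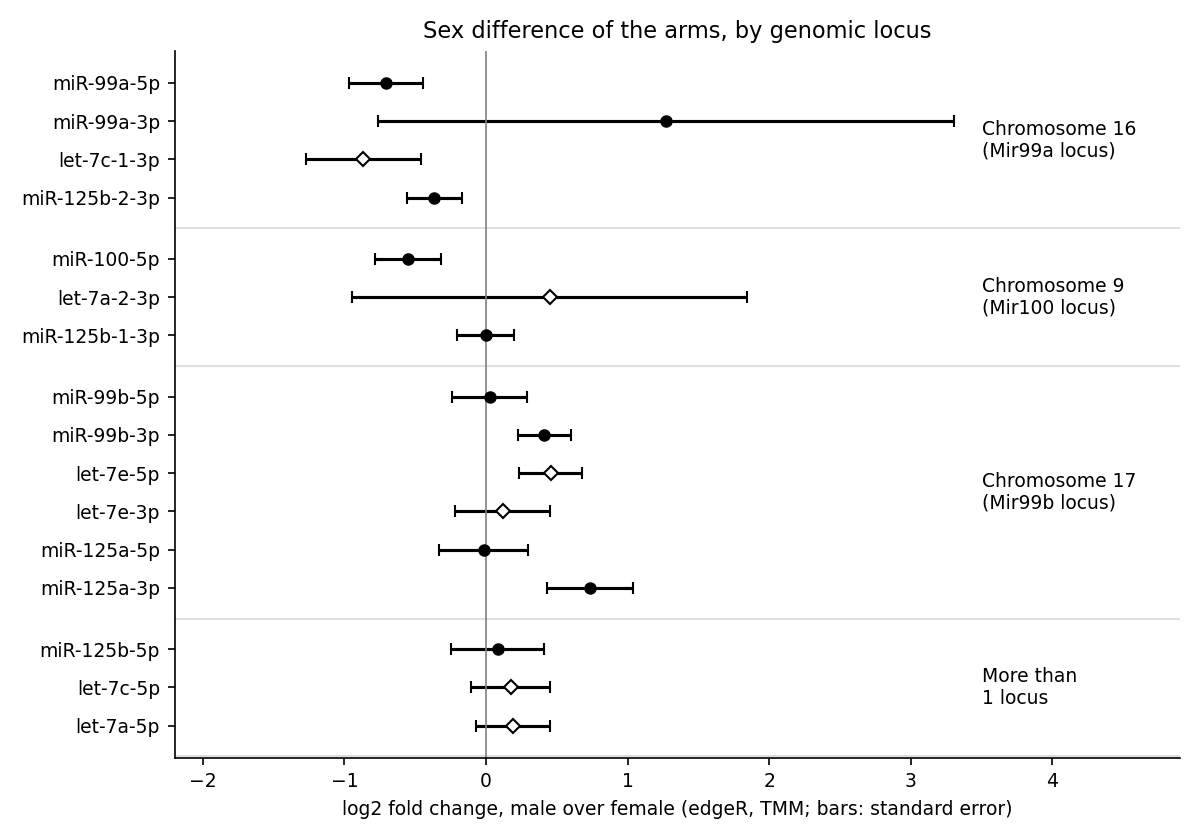
Log2 fold change of male over female by edgeR, with bars of 1 SE, for the arms of each locus; filled circles are member arms and open diamonds their let-7 partners, and values below 0 are lower in males. miR-99a-5p (-0.70) and let-7c-1-3p (-0.87) lay lowest, and 5 of the 6 chromosome 17 arms lay above 0.

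**Figure D3:**
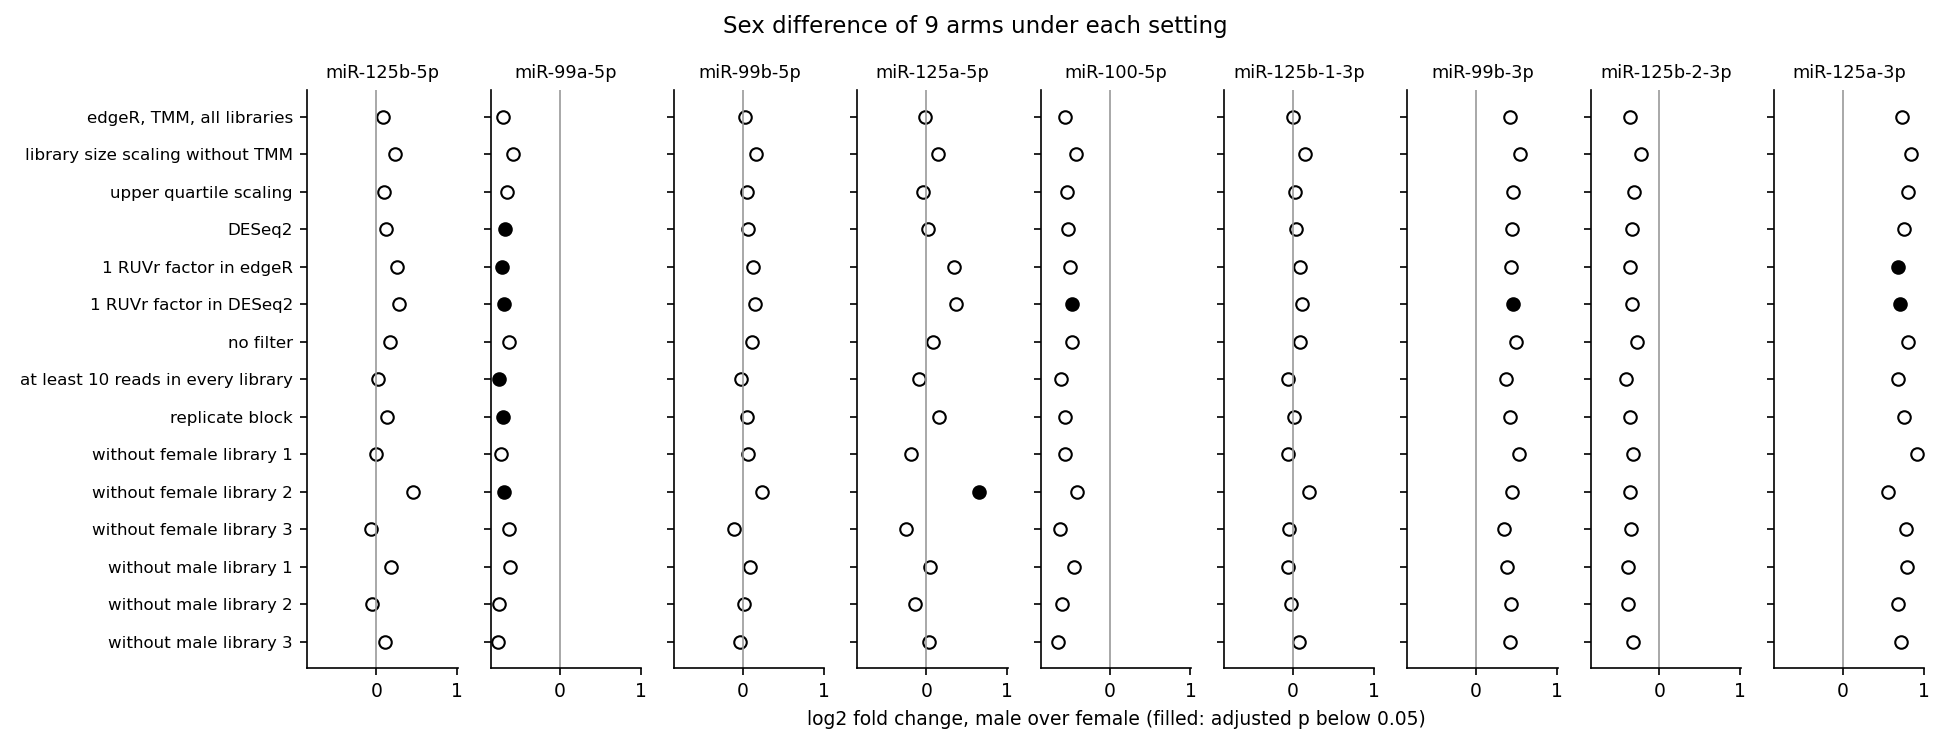
Log2 fold change of male over female for 9 member arms, without the sparsely read miR-99a-3p, under the 15 ways of fitting the data, with filled points where the adjusted p was below 0.05. miR-99a-5p stayed between -0.77 and -0.58 and was filled under 6 of the 14 alternatives, while miR-125a-5p ran from -0.25 to 0.65 and was filled only without female library 2.

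Grouped by seed, the 3 miR-99/100 5p arms took 6.65%, 7.31% and 6.91% of the reads in females and 5.65%, 5.58% and 6.30% in males. Every female library was above every male library. The difference of mean log2 CPM was -0.25, with p = 0.1 in a two-sided exact permutation test and 0.3 after Benjamini-Hochberg adjustment over 6 measures, and 0.1 is the smallest p that 3 libraries against 3 allow. The miR-125 5p arms together took 7.59%, 13.5% and 7.67% in females and 10.7%, 12.1% and 10.6% in males. The groups overlapped through female library 2, and the difference was 0.27 (exact permutation p = 0.4, adjusted 0.48). Without that library, both remaining females were below all males and the difference was 0.54, with an exact permutation p of 0.2, the smallest that 3 against 2 allow.

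Within the miR-99/100 family the makeup differed in its order. miR-99a-5p gave 48.6%, 44.6% and 56.9% of the family's 5p reads in females and 38.9%, 40.6% and 39.8% in males. miR-99b-5p gave 36.6%, 39.8% and 29.2% in females and 48.5%, 46.0% and 46.7% in males. miR-99a-5p was thus the leading member in all 3 female libraries and miR-99b-5p in all 3 male libraries.

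A ratio of relatives inside a library does not depend on how libraries are scaled. The ratio of miR-99a-5p to miR-99b-5p was 1.33, 1.12 and 1.95 in females and 0.802, 0.882 and 0.852 in males, without overlap. The difference of the log2 ratio was -0.76 (exact permutation p = 0.1, adjusted 0.3 over the 6 measures), and it ran from -0.93 to -0.53 when each library was left out. The ratio of miR-99a-5p to miR-100-5p was 3.29, 2.87 and 4.10 in females and 3.11, 3.03 and 2.96 in males. The groups overlapped through female library 2, which had the lowest ratio. The difference was -0.16 (exact permutation p = 0.4, adjusted 0.48), and it was -0.28 without overlap when female library 2 was left out and -0.019 when female library 3 was.

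The ratios between miR-125 relatives overlapped between the sexes. The ratio of miR-125b-5p to miR-125a-5p was 6.83, 4.56 and 6.59 in females and 5.54, 5.92 and 6.06 in males, a log2 difference of -0.01 (exact permutation p = 1). Female library 2 had the lowest ratio and the other 2 female libraries the highest, and without that library the difference was -0.20 with no overlap. The ratio of miR-125b-2-3p to miR-125b-1-3p, the 3p arms of the chromosome 16 and chromosome 9 copies, was 0.570, 0.371 and 0.513 in females and 0.347, 0.363 and 0.386 in males. The groups overlapped only through female library 2. The log2 difference was -0.39 (exact permutation p = 0.2, adjusted 0.4), and without that library it was -0.57. This ratio compares minor strands of different sequence, so that it is no pure measure of the output of the miR-125b genes.

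**Figure D4:**
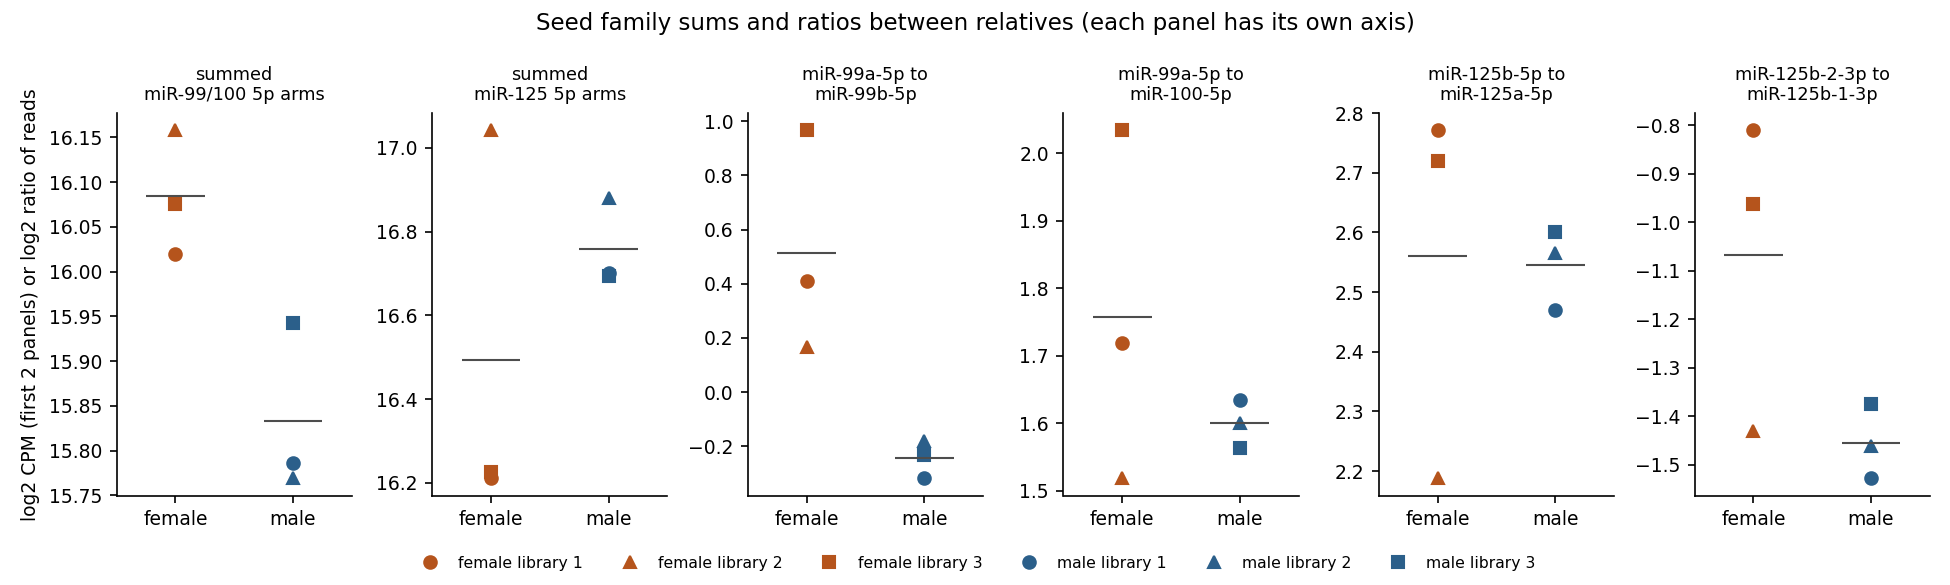
Seed family sums and ratios between relatives in each library, with 1 panel per measure and points for the 3 female and 3 male libraries. The miR-99a-5p to miR-99b-5p ratio was above 1 in every female library and below 1 in every male library, and female library 2 sat apart from the other females in the miR-125 panels.

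The balance of the 2 strands of a hairpin was also compared, as 5p reads per 3p read. For miR-125a it was 194, 888 and 231 in females and 224, 245 and 206 in males, so that female library 2 held far fewer 3p reads per 5p read than any other library. For miR-99b it was 41.9, 58.0 and 42.2 in females and 31.7, 38.1 and 39.9 in males, with every male library lower. For miR-125b, over both 3p arms, it was 71.2, 98.1 and 65.1 in females and 73.5, 104 and 97.4 in males. The 5p arm was the dominant strand of each hairpin in every library.

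limma, fitted to the log2 ratios of 295 strand pairs, called 0 of the 5 member pairs after Benjamini-Hochberg adjustment, against 0.0% of all pairs, and 16.9% of all pairs had an unadjusted p below 0.05, among them 0 member pairs. The log2 ratio differed by -0.36 (SE 0.20) for miR-99b, or -0.21 without female library 2, and by -0.60 (SE 0.54) for miR-125a, or 0.086 without that library. The ratio of miR-125b-5p to miR-125b-2-3p differed by 0.50 (SE 0.28, adjusted p = 0.462 by limma). Without female library 2 this value was 0.81 with an adjusted p of 0.0303 by limma, when 11.1% of all pairs were called. It compares a 5p arm made from both miR-125b genes with the 3p arm of 1 of them, so that it is no pure measure of strand choice.

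**Figure D5:**
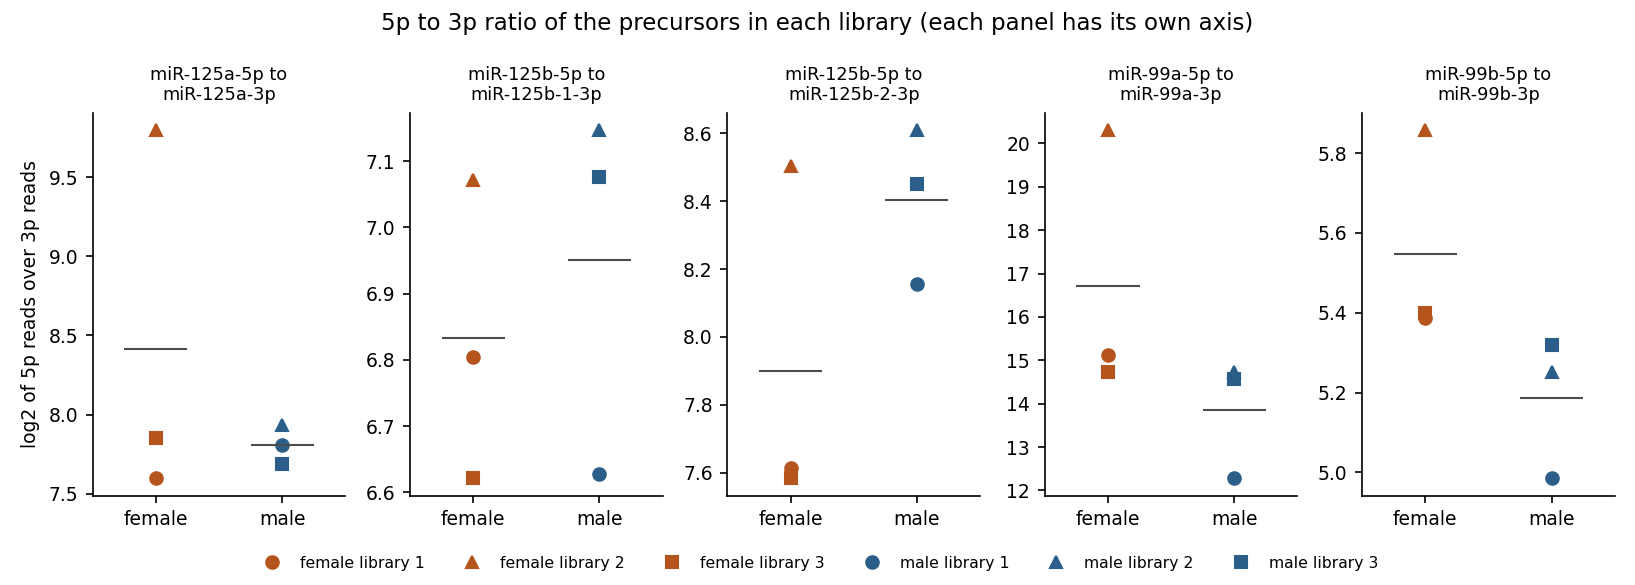
Log2 ratio of 5p to 3p reads in each library for the 5 member strand pairs, females and males in separate columns. Female library 2 had the highest ratio of the females in each panel, and the miR-99b ratio was lower in every male library than in every female library.

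The miRNAs whose pattern over the 6 libraries was most like that of each 5p arm were found by the root mean square difference of centered log2 CPM over 544 miRNAs, as a description of 6 points that share their depth. For miR-99a-5p they were miR-186-5p (0.104), miR-34c-5p (0.106) and miR-582-3p (0.112), where the median over all miRNAs compared was 0.569. For miR-100-5p they were miR-873a-3p (0.0999), miR-3057-5p (0.124) and miR-1839-5p (0.143). Those of miR-99b-5p were miR-30d-5p (0.0501), miR-361-3p (0.0842) and miR-412-5p (0.0943).

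For miR-125b-5p the closest were miR-3968 (0.0958), miR-92b-3p (0.0979) and miR-541-5p (0.104), and for miR-125a-5p they were miR-25-5p (0.142), miR-92b-3p (0.147) and miR-1930-5p (0.164). miR-92b-3p was therefore among the 3 closest of both miR-125 5p arms.

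Markers of other tissues moved with sex in these whole-brain libraries. The marker lists were chosen with earlier results of these data known, so their counts of calls are a description and no independent test. The lists hold miRNAs that the paper had already reported as sex-biased from these libraries. Among them are miR-206-3p (muscle), miR-205-5p and miR-200c-3p (epithelium), miR-199a-5p (mesenchyme), miR-10b-5p (hindbrain) and miR-9-3p (brain). Summed levels of brain and neuronal miRNAs (miR-9, miR-124, miR-128, miR-137 and miR-138 arms) were 226180 to 267295 CPM in females and 180377 to 208861 CPM in males. By edgeR, 3 of 6 were called lower in males, namely miR-9-3p, miR-137-3p and miR-138-5p. miR-9-5p, the miRNA with the most reads in the study, is part of the sum and was not called. Skeletal muscle miRNAs summed to 388 to 1180 CPM in females and 5497 to 6139 CPM in males (4 of 4 called higher), epithelial miRNAs to 429 to 1133 and 7990 to 8284 CPM (5 of 6 higher), and mesenchymal miRNAs to 4459 to 12438 and 19184 to 22960 CPM (4 of 4 higher). Hindbrain and spinal cord miRNAs summed to 8928 to 12707 CPM in females and 1761 to 2178 CPM in males (3 of 5 called lower), and endothelial miRNAs to 3864 to 8146 and 2690 to 3900 CPM (2 of 2 lower). The endothelial calls fell to 0 of 2 with library size scaling, without female library 3 and without male library 1, and to 1 of 2 without male library 3. Muscle calls fell to 3 of 4 with library size scaling and DESeq2, and to 2 of 4 without female library 3 or male library 1. Mesenchymal calls fell to 3 of 4 without female library 3 or male library 3, and to 2 of 4 without male library 1. Brain calls fell to 1 of 6 without male library 1 and 2 of 6 without each of the others except female library 2. They were also 2 of 6 with library size scaling, upper quartile scaling, no filter and the replicate block, and 4 of 6 with 1 RUVr factor in DESeq2. Red blood cell miRNAs were at 26.4 to 62.2 and 34.6 to 53.8 CPM, with 0 of 3 called. No marker was at 0 in every library. miR-99, miR-100 and miR-125 are made in many tissues, and in bulk RNA fewer cells of a type and less RNA per cell cannot be told apart, so that the part of these marker differences in the values of the 10 arms was not tested.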

How the data were processed

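RNA from whole brain of E15.5 mouse embryos was made into 6 small RNA libraries, 3 per sex. The authors deposited raw read counts per mature miRNA, which they made with the miRDeep2 workflow (cutadapt 1.15, Bowtie 1.2.1, mm9, miRBase 21). Grouping followed the sex given in the labels. Counts were fitted with edgeR 4.0.16 (TMM, glmQLFit, glmQLFTest) over the 1120 miRNAs that reached 10 reads in all libraries combined, with sex as the only term, and adjusted by Benjamini-Hochberg (threshold 0.05). All 10 member arms passed this filter. The SE of an edgeR log2 fold change was taken as its absolute value divided by the square root of the test's F statistic. DESeq2 1.42.0 and 1 RUVr factor, written out in R 4.3.3 because the number of factors is not stated, were alternatives, as were other scalings, filters, a replicate block and each library left out. Strand ratios, log2((5p + 0.5)/(3p + 0.5)), were tested with limma 3.58.1 for pairs whose arms both averaged 10 reads or more. Family sums and ratios of relatives were tested with two-sided exact permutation. Likeness was measured over miRNAs averaging 100 reads or more per library. The named miRNAs were the 10 arms, the 6 let-7 arms of their loci and the 3 closest in pattern to each 5p arm. Members and lists were chosen with earlier results of these data known. Positions are exact matches of the mature sequences to NCBIM37, counted from 1.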

Additional observations from a re-analysis of the deposited data

How the results depend on the processing

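The fold changes of miR-99a-5p, miR-100-5p, miR-99b-3p and miR-125a-3p kept their sign under all 14 alternatives, and their calls did not hold throughout. The member arms called, 0 in the edgeR fit, numbered 1 with DESeq2, with at least 10 reads in every library and with the replicate block, 2 with 1 RUVr factor in edgeR and 4 with that factor in DESeq2, and 0 to 2 when each library was left out, 2 without female library 2. All miRNAs called, 95 at first, numbered 147 and 226 with the RUVr factor in edgeR and DESeq2, and 30 (without male library 1) to 203 (without female library 2) when each library was left out, with 60 without female library 3. The let-7 arms called numbered 1 with the RUVr factor in DESeq2 and 0 to 1, and marker miRNAs 13 (without male library 1) to 21, when each library was left out. Leaving out a library removes samples from the fit, and beyond that the cause was not tested.

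Among the member arms, signs turned for 4 whose log2 fold change was near 0. The log2 fold change of miR-99b-5p was -0.026 with at least 10 reads in every library and -0.11 to 0.24 over the fits leaving out a library. That of miR-125a-5p was 0.15 with library size scaling, 0.019 with DESeq2, 0.34 and 0.37 with the RUVr factor in edgeR and DESeq2, 0.081 without a filter, 0.16 with the replicate block and -0.25 to 0.65 over the libraries left out. That of miR-125b-1-3p was 0.15 with library size scaling, 0.032 with upper quartile scaling, 0.033 with DESeq2, 0.088 and 0.11 with the RUVr factor in edgeR and DESeq2, 0.089 without a filter, 0.020 with the replicate block and -0.065 to 0.20 over the libraries left out, and that of miR-125b-5p ran from -0.064 to 0.45 over the libraries left out. Of the strand ratios, 0 to 1 member pairs were called when each library was left out, 1 without female library 2, and the miR-125a ratio ran from -1.01 to 0.086. The difference in the ratio of miR-125b-5p to miR-125a-5p ran from -0.20 to 0.091.

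Deviations of same-numbered female and male libraries had correlations of -0.109, -0.000851 and 0.165 over 553 miRNAs. Those of differently numbered libraries ran from -0.180 to 0.173. So few values, taken around the mean of each sex, cannot show whether replicate numbers pair the samples. With the replicate block, 92 of 1120 miRNAs were called (8.21%), and miR-99a-5p was the member among them (adjusted p = 0.0314 by edgeR). Exact tests of 3 libraries against 3 cannot pass 0.05. miR-99a-3p, at 1 to 82 reads, is limited by its depth.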
